A study of Mus musculus with 13 samples.

Results

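The genes described here are the enzymes and carriers of fatty acid oxidation, together with Ppara and a number of genes long known as targets of the receptor it encodes. They form a list of 37 symbols grouped by function, drawn up with earlier results of these data known. All 37 stood among the 35013 gene symbols of the deposited count table, and all 37 passed the filter on low counts that left 16468 genes for testing. RNA had been tagged in the kidneys of mice carrying Megalin3'Cre-Ert, an inducible Cre of the proximal tubule, and Uprt flox/+. The latter is a floxed-stop allele of uracil phosphoribosyltransferase that lets cells in which Cre has acted put 4-thiouracil into new RNA. The study's methods name female C57Bl6 mice and equal responses of males and females, without giving the sex of each library. Tagged RNA was captured after biotinylation, enriched for poly-A and sequenced. The genotype that the study writes as Spns1 flox/flox, deleted for the lysosomal transporter Spns1 after tamoxifen, supplied 4 libraries (Spns1 KO). The littermate genotype with 1 floxed allele, Spns1 flox/+, which the sample labels call wild type, supplied 5 untreated libraries (WT) and 4 libraries of mice injected on 3 days with iron sucrose, 12 mg each day, and killed 1 week after (FeO). The controls therefore also carried Cre, Uprt and 1 floxed Spns1 allele and had received tamoxifen, and the ages of the mice were not given in the sources used here.

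Mitochondria burn long-chain fatty acids after the carnitine shuttle has carried them inside, and a spiral of dehydrogenases, hydratases and thiolases then shortens the chain while electron transfer flavoprotein passes the electrons to the respiratory chain. Peroxisomes shorten other chains with a parallel set of enzymes. The nuclear receptor PPARa, bound to DNA with RXR, drives many of these genes, and the proximal tubule, which relies on fatty acids as its main fuel, is a site of high PPARa activity.

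The library totals ran from 23068023 to 71296474 estimated counts, with a median of 29981814. The count of the whole Spns1 gene did not separate the groups (log2FC of Spns1 KO over WT -0.31, P_adj = 0.23 by edgeR's quasi-likelihood test), and because the floxed allele loses a single exon such a count checks the genotype poorly, so genotypes are given as labelled. Spns1 stood at 39.0, 44.5 and 36.6 CPM in Spns1 KO 1 to 3, at 59.0 CPM in the library labelled Spns1 KO 4, at 39.2 CPM in WT 4 and at 57.2 to 62.9 CPM in the other 4 WT libraries. The library labelled Spns1 KO 4 thus lay at the level of most WT libraries for Spns1, its genotype was not checked here, and the main counts are given with and without it. The 14 proximal tubule markers examined were all detected, among them Lrp2, which encodes megalin. Markers of podocytes, endothelium, macrophages and adipocytes were detected as well, so the captured RNA held transcripts of other cell types too. In such bulk RNA, fewer cells of a type and less RNA per cell cannot be told apart.

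In Spns1 KO, 14 of the 37 genes were upregulated and 1, Angptl4, was downregulated. A gene was called when P_adj was under 0.05 over all tested genes and the log2FC lay beyond 0.5 in edgeR's quasi-likelihood test. Of all tested genes, 14.0% were upregulated and 7.55% downregulated by the same limits. The median log2FC of the 37 genes was 0.62, that of all tested genes was -0.045, and 32 of the 37 lay above 0. For 7 of the 37 genes every Spns1 KO library was higher than every WT library, a pattern shown by 13.1% of all tested genes, and for 0 of them was every Spns1 KO library lower, against 9.38% of all tested genes.

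In FeO the counts were alike: 14 of the 37 genes were upregulated and 1, Ppara itself, was downregulated, where 22.4% of all tested genes were upregulated and 19.7% downregulated. The median log2FC was 0.61 against -0.011 over all tested genes, and 32 of the 37 genes again lay above 0. Every FeO library was higher than every WT library for 11 of the genes, compared with 16.9% of all tested genes, and lower for 1 gene, compared with 16.4%. The 2 contrasts share the 5 WT libraries, so their values are given side by side and are not independent of each other. Acadl, Acadm, Acads, Hadh, Decr1, Etfa, Etfb, Acot3, Fabp3 and Cd36 passed in each contrast. The genes Acadvl, Acaa2, Eci1 and Acaa1b passed for Spns1 KO alone, Slc25a20, Crot, Hadhb and Acsl5 passed for FeO alone, and among them Acsl5 alone passed the test between Spns1 KO and FeO.

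**Figure D1:**
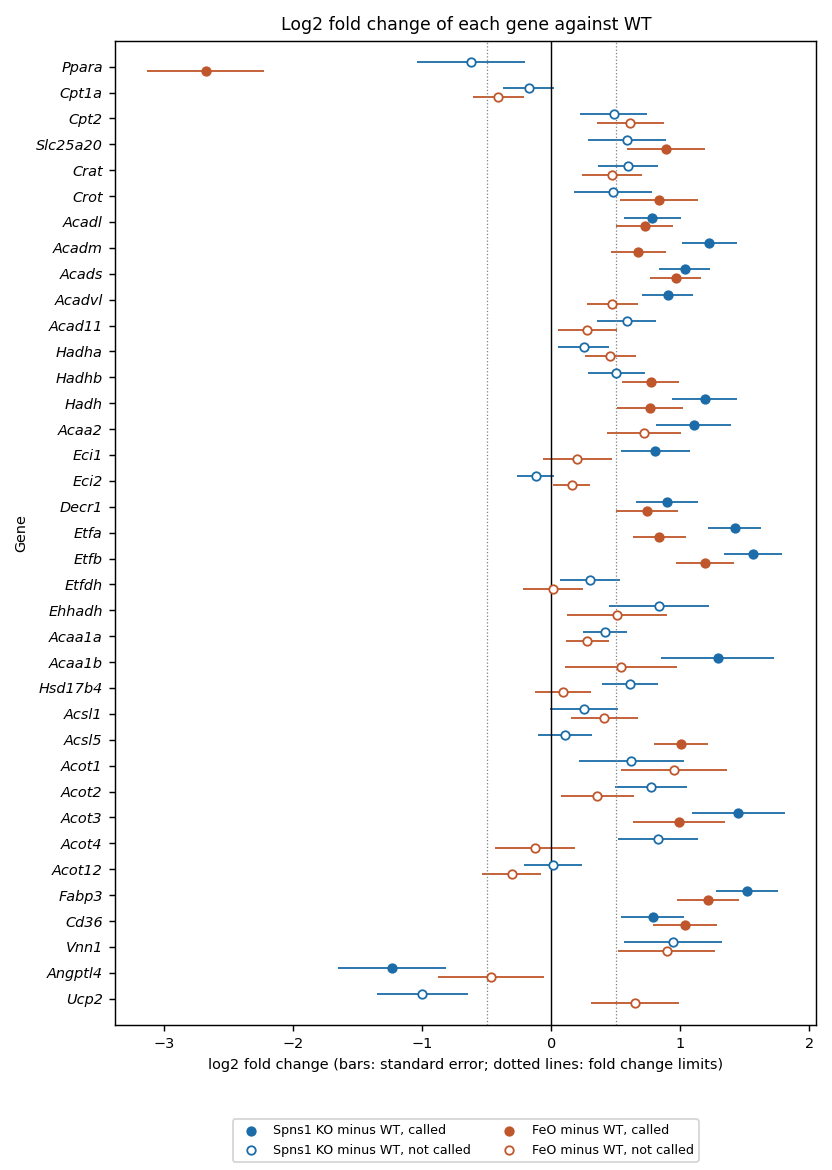
Log2 fold change against WT of each of the 37 genes (rows), for Spns1 KO in blue and FeO in orange. Bars are standard errors, filled points are called genes, open points are genes not called, and dotted lines mark the fold change limits. Most points lie to the right of 0 in both contrasts, while Ppara lies far to the left in FeO.

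The promoters of the genes that rose in both groups are shown because PPARa binds with RXR to a direct repeat with a spacer of 1 base, AGGTCANAGGTCA. The 250 bases upstream of RefSeq starts (GRCm38.p6) were searched on both strands with up to 2 mismatches. A start was found for 31 of the 37 genes, and 4 of the 31 (12.9%), Etfa, Acot4, Acot12 and Cd36, held such a repeat, compared with 3.72% of the 27025 genes with a start. None of the 31 held the repeat without a mismatch, compared with 0.0407% of all genes with a start. Below are the upstream bases of Fabp3 (chr4:130308488-130308594, plus strand, 107 bases that overlap no exon) and Etfb (chr7:43443822-43444071, plus strand), the first in order of fold change, and of Etfa (chr9:55512244-55512493, minus strand) and Cd36 (chr5:17835897-17836146, minus strand), picked after their values were seen because they hold the repeat, on the strand opposite to the gene, in capitals.
Fabp3: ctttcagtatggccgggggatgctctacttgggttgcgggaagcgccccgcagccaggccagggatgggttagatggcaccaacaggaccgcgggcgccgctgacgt
Etfb: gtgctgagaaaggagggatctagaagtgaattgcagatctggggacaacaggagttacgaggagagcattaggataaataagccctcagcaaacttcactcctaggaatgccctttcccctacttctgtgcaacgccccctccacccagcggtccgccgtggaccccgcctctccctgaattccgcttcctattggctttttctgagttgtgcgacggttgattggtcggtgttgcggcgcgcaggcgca
Etfa: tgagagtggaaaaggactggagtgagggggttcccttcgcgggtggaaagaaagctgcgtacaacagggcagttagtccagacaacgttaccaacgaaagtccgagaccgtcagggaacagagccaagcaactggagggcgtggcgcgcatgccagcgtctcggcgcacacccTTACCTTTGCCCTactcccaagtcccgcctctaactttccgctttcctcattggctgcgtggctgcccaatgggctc
Cd36: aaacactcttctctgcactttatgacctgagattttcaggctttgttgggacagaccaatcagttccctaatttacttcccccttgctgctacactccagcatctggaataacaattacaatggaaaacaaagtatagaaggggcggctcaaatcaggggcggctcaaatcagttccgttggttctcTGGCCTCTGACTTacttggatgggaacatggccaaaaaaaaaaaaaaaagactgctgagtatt
The repeat in Etfa began 77 bases before the RefSeq start used and that in Cd36 63 bases before it. The start used for Cd36 lies inside the annotated gene, which begins upstream of it at position 17888801 on the minus strand. A match of letters is a description and not a binding site.

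The libraries labelled Spns1 KO spread widely for these genes. In Spns1 KO 1, 2 and 3, the median of the 37 genes lay 0.88, 0.55 and 1.13 above the WT mean in log2 CPM, and in Spns1 KO 4 it lay at -0.26. In Spns1 KO 4 only 13 of the 37 genes were above the WT mean, compared with 32 to 34 in the other 3. The FeO libraries had medians of 0.52, 0.24, 0.92 and 0.42, and FeO 2 was nearest to WT. When Spns1 KO 4 was left out, 26 of the 37 genes were upregulated in Spns1 KO, with a median log2FC of 0.88, where 3003 of 16651 tested genes were upregulated. When Spns1 KO 3, the highest library, was left out instead, 7 genes were upregulated, namely Acadm, Acads, Acadvl, Hadh, Etfa, Etfb and Fabp3, against 9.18% of all tested genes. Without FeO 3, 7 genes were upregulated in FeO, namely Acads, Hadhb, Etfa, Etfb, Acsl5, Fabp3 and Cd36, a number no greater than the share of 20.1% among all tested genes would give.

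**Figure D2:**
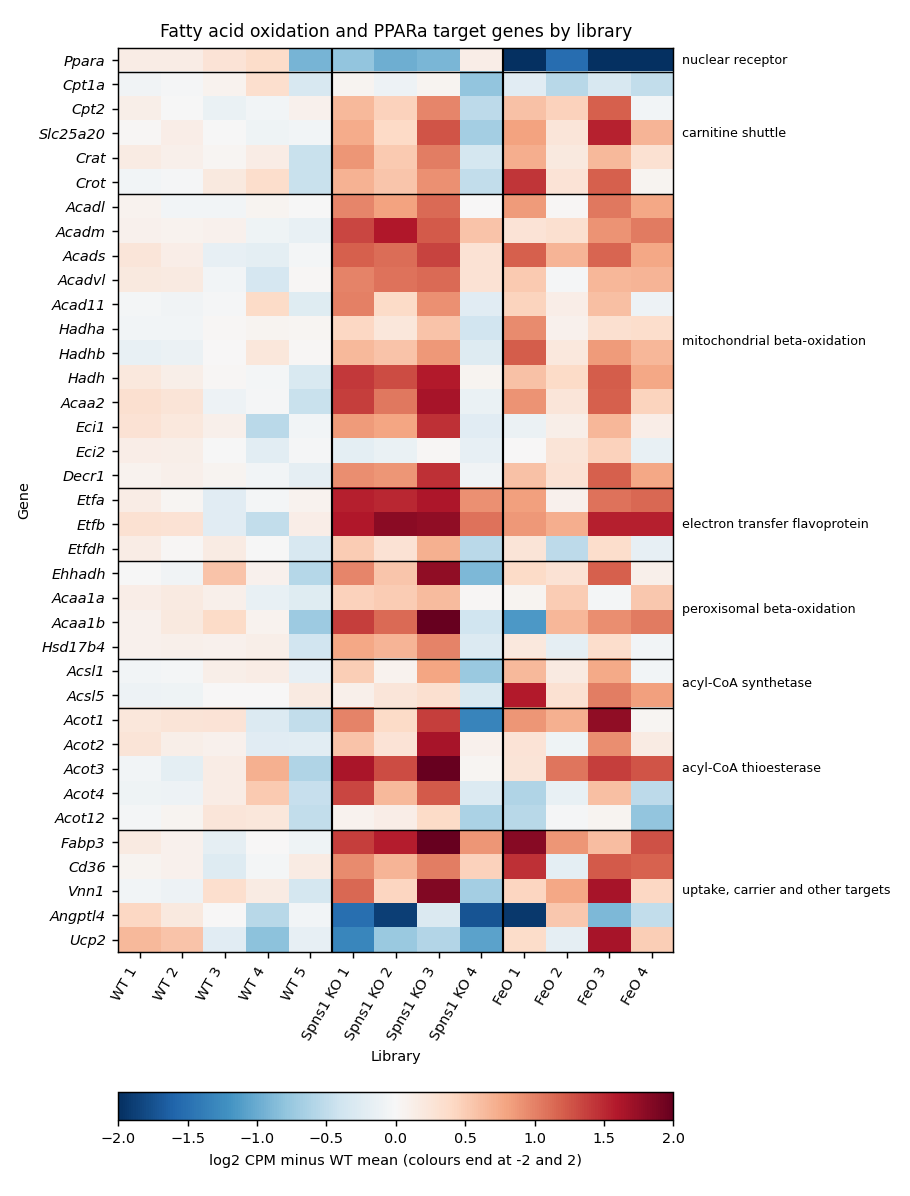
Each row is 1 of the 37 genes, ordered by role, and each column is 1 library. Colour gives log2 CPM minus the mean of the WT libraries, red for higher and blue for lower, with the scale ending at -2 and 2. Spns1 KO 1 to 3 and FeO 3 are red over most rows, Spns1 KO 4 is pale or blue over many rows, and Ppara is dark blue in FeO.

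Most proximal tubule markers lay higher in Spns1 KO than in WT (median log2FC 0.96). In FeO, 7 of the 14 had a log2FC above 0 and 7 below (median -0.0043). Their summed level was 3985 to 5613 CPM in WT, 11940 to 12773 CPM in Spns1 KO and 2713 to 10157 CPM in FeO. Spns1 KO upregulated 10 of the 14 markers, where 14.0% of all tested genes were upregulated. FeO upregulated 4 and downregulated 1, beside 22.4% and 19.7% of all tested genes. None of the 14 was at 0 in every library. Spns1 KO 4, with the low fatty acid oxidation genes, had a marker sum of 12373 CPM, within the range of the other Spns1 KO libraries. FeO 1, with the lowest marker sum of all, 2713 CPM, had a median of the 37 genes 0.52 above the WT mean. In FeO 4 most of the sum was Kap, a kidney protein under androgen control. Without Kap the sums were 2131 to 4649 CPM in FeO, 3192 to 4575 CPM in WT and 7320 to 8132 CPM in Spns1 KO. The part of proximal tubule content in the levels of the 37 genes was not tested.

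Markers of other cells moved as well. Of 6 red cell markers, Spns1 KO upregulated 6 and FeO 5 (median log2FC 2.10 and 1.89), and their summed level was 20.8 to 42.9 CPM in WT, 58.7 to 202 CPM in Spns1 KO and 55.2 to 261 CPM in FeO. FeO upregulated 6 of 9 collecting duct markers and 4 of 6 podocyte markers, where Spns1 KO upregulated 3 and 2. A further collecting duct marker, Scnn1g, was called lower in Spns1 KO than in WT (log2FC -0.87 ± 0.25, P_adj = 0.019). Of 5 loop of Henle markers, FeO upregulated 3, with Cldn10 the highest (log2FC 2.03), while Spns1 KO upregulated 2. For comparison, the upregulated shares of all tested genes were 22.4% for FeO, 14.0% for Spns1 KO. The summed collecting duct markers were 442 to 767 CPM in WT, 405 to 592 CPM in Spns1 KO and 618 to 1821 CPM in FeO, and the summed podocyte markers 171 to 305 CPM, 243 to 306 CPM and 294 to 687 CPM. Spns1 KO upregulated 3 of 7 fibroblast markers and FeO 0, with sums of 93.5 to 138 CPM in WT, 159 to 205 CPM in Spns1 KO and 73.9 to 164 CPM in FeO. None of these markers was at 0 in every library, and their part in the levels of the 37 genes was not tested.

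Ppara encodes the receptor itself and lies on chr15:85734983-85802819 (GRCm38). Its level in WT 1 to 5 was 274.0, 273.4, 298.8, 320.1 and 130.6 CPM. In Spns1 KO 1 to 4 it was 143.7, 126.3, 131.7 and 271.7 CPM, and in FeO 1 to 4 it was 15.1, 86.7, 37.1 and 23.1 CPM. All 4 FeO libraries lay below every WT and every Spns1 KO library. In Spns1 KO, 3 libraries lay near the lowest WT library and Spns1 KO 4 lay among the others. The log2FC in FeO was -2.68 ± 0.45 (SE, P_adj = 0.00064), a level of 0.156 times that of WT. In Spns1 KO it was -0.62 ± 0.42 (P_adj = 0.29) and Ppara was not called. Compared directly, Ppara was higher in Spns1 KO than in FeO by 2.06 ± 0.45 in log2FC (P_adj = 0.010).

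In FeO, Ppara and the median of the rest of the list lay on opposite sides of WT, although Cpt1a, Angptl4, Acot4 and Acot12 had negative log2FC too. In each FeO library the median of the other 36 genes lay above the WT mean, at 0.55, 0.24, 0.93 and 0.43, while Ppara lay below every WT library. Spns1 KO 4 was the only Spns1 KO library with Ppara at the level of most WT libraries, and it was also the only one with the other 36 genes at a median below the WT mean, -0.27. WT 5, with the lowest Ppara of the WT libraries, had a median of -0.17.

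**Figure D3:**
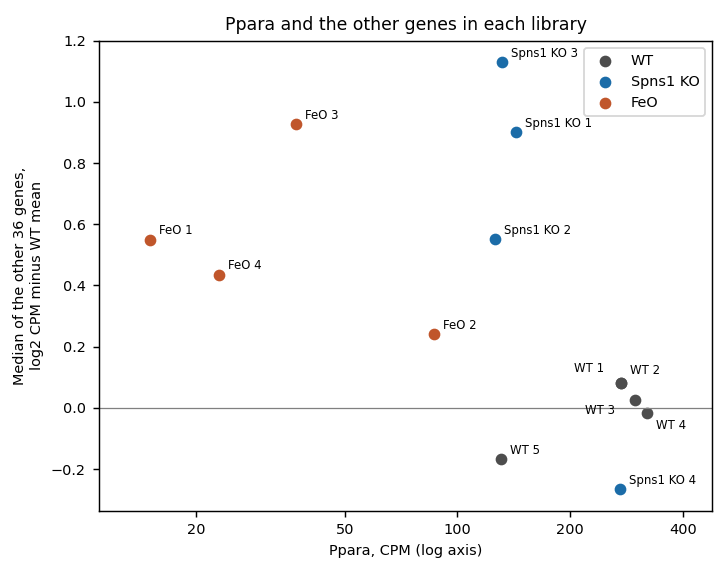
Each point is 1 library, with the level of Ppara on a log axis in CPM and, on the vertical axis, the median of the other 36 genes as log2 CPM minus the WT mean. The FeO libraries lie at the left, at 15.1 to 86.7 CPM, with medians above 0, and Spns1 KO 4 lies with the WT libraries at the right, away from Spns1 KO 1 to 3.

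Over the 13 libraries, the 5 genes whose levels ranked most like those of Ppara were Dock9 (Spearman's rho 0.989), Rasal2 (0.984), Pbrm1 (0.978), Rps6kb1 (0.978) and Zdhhc21 (0.978). These are descriptions over libraries that fall into 3 groups. The median transcript lengths of these genes, 4391 to 7586 bases, were all above the median of 2627 bases over the tested genes.

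The carnitine shuttle of Cpt1a, Slc25a20 and Cpt2 brings long-chain acyl groups into mitochondria, and Crat and Crot are listed with it here. Of these 5 genes, 0 were called in Spns1 KO and 2, Slc25a20 and Crot, were upregulated in FeO. The shares of all tested genes upregulated were 14.0% in Spns1 KO and 22.4% in FeO. Cpt1a, the outer membrane transferase that sets the pace of entry, had 685.3, 703.1, 755.0, 910.5 and 575.5 CPM in WT, 743.5, 668.4, 746.2 and 415.0 CPM in Spns1 KO, and 613.8, 490.7, 574.2 and 508.3 CPM in FeO. The groups overlapped, and the log2FC of Cpt1a was -0.17 ± 0.20 in Spns1 KO (P_adj = 0.54) and -0.41 ± 0.20 in FeO (P_adj = 0.10). Cpt1a was the only gene of the 5 with negative values in both contrasts.

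Cpt2, the inner membrane transferase that hands the acyl group back to coenzyme A, ran between 91.4 and 108.5 CPM in WT. It stood at 157.9, 138.5, 197.2 and 69.6 CPM in Spns1 KO and at 150.6, 137.7, 231.1 and 97.2 CPM in FeO. Spns1 KO 4 was below every WT library and the other 3 were above, and in FeO only FeO 4 overlapped WT, so the log2FC of 0.48 ± 0.26 in Spns1 KO (P_adj = 0.19) and 0.61 ± 0.26 in FeO (P_adj = 0.066) did not pass. Slc25a20, the carrier that exchanges acylcarnitine for carnitine, was upregulated in FeO (log2FC 0.89 ± 0.30, P_adj = 0.025) and had a log2FC of 0.59 ± 0.30 in Spns1 KO (P_adj = 0.17). Crot, the peroxisomal octanoyltransferase, was upregulated in FeO (0.83 ± 0.30, P_adj = 0.035), a call lost when any of 5 libraries was left out, namely WT 1, 2 or 5 or FeO 1 or 3. Crat, which acts on short chains, had log2FC of 0.59 and 0.47 and was not called. Without Spns1 KO 4, Cpt2, Crat and Slc25a20 were upregulated in Spns1 KO.

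**Figure D4:**
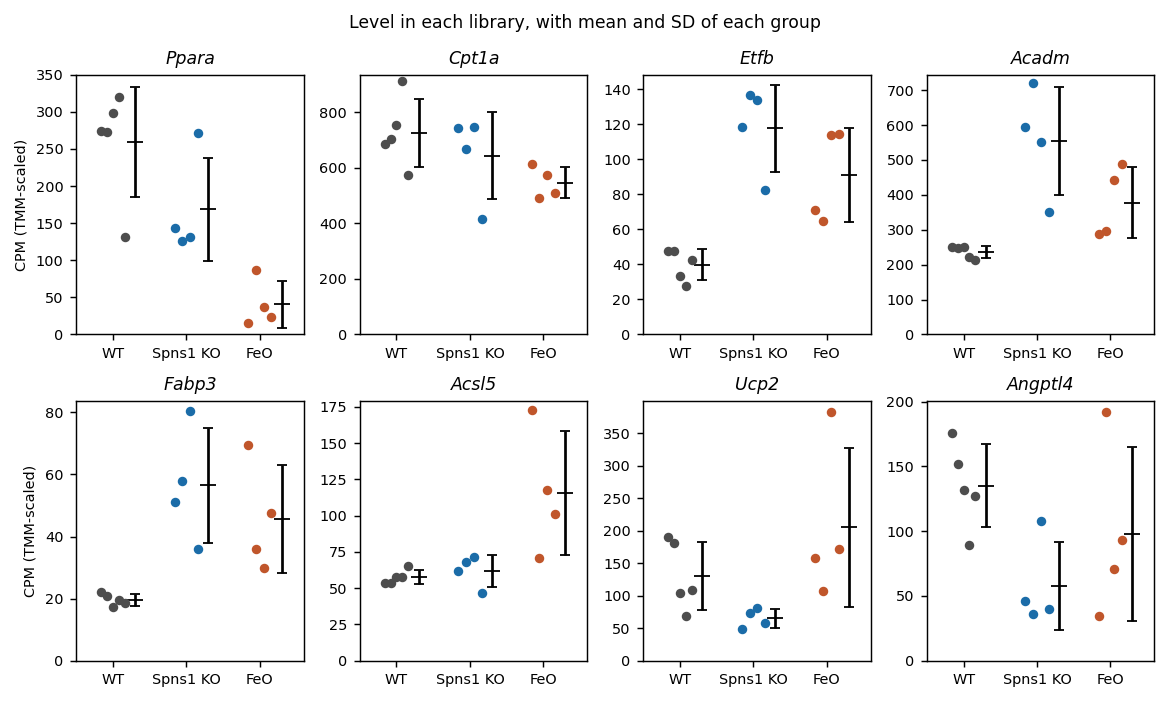
Points are the CPM of single libraries for 8 of the genes, with the mean and SD of each group as a bar beside them; the vertical axes start at 0. Ppara is lowest in FeO, Cpt1a overlaps across the groups, Etfb, Acadm and Fabp3 lie above WT in every Spns1 KO and FeO library, Acsl5 lies above WT in every FeO library, and the means of Ucp2 and Angptl4 lie lower in Spns1 KO than in WT.

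Of the 12 genes of the mitochondrial spiral, Spns1 KO upregulated 8 and FeO 6, where 14.0% and 22.4% of all tested genes were. The median log2FC of the 12 was 0.85 and 0.70, and 0 were downregulated in either. The acyl-CoA dehydrogenases take the first step for chains of a given length. Acadm, for medium chains and the gene of a common inborn error of fatty acid oxidation, had 249.9, 248.7, 249.7, 222.2 and 214.1 CPM in WT. It had 594.7, 719.6, 552.7 and 349.9 CPM in Spns1 KO and 286.7, 296.5, 441.6 and 487.5 CPM in FeO, so that every library of both groups was above every WT library, Spns1 KO 4 included. The log2FC was 1.23 ± 0.21 in Spns1 KO (P_adj = 0.0013) and 0.67 ± 0.21 in FeO (P_adj = 0.019), and the direct difference of 0.55 ± 0.23 did not pass (P_adj = 0.11). The call in FeO was lost without FeO 3 or FeO 4.

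Acads, for short chains, had 24.8, 23.0, 18.6, 18.3 and 20.3 CPM in WT, 47.8, 45.4, 53.4 and 25.5 CPM in Spns1 KO, and 47.7, 33.4, 47.0 and 35.8 CPM in FeO. No library of either group overlapped WT, although Spns1 KO 4 came within 1 CPM of WT 1. It was upregulated by a log2FC of 1.03 ± 0.20 in Spns1 KO (P_adj = 0.0023) and 0.96 ± 0.20 in FeO (P_adj = 0.0016), and the calls held whichever library was left out. Acadvl, for very long chains, was upregulated in Spns1 KO (0.90 ± 0.20, P_adj = 0.0051) and had a log2FC of 0.48 ± 0.20 in FeO (P_adj = 0.060). Acadl, for long chains, was upregulated in both, by 0.78 ± 0.22 (P_adj = 0.020) and 0.73 ± 0.22 (P_adj = 0.016). Of the 31-base words of Acadvl transcripts, 33.2% also occur in the overlapping gene Dvl2 on the opposite strand.

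Further along the spiral, Hadh, the dehydrogenase of short hydroxyacyl chains, was upregulated by a log2FC of 1.19 ± 0.25 in Spns1 KO (P_adj = 0.0046) and 0.76 ± 0.25 in FeO (P_adj = 0.023). Acaa2, a mitochondrial thiolase, was upregulated in Spns1 KO (1.10 ± 0.29, P_adj = 0.014) and stood at 0.72 ± 0.29 in FeO (P_adj = 0.054). Hadha and Hadhb encode the subunits of the trifunctional protein for long chains. Hadhb was upregulated in FeO (0.77 ± 0.22, P_adj = 0.011) and not called in Spns1 KO (0.50 ± 0.22, P_adj = 0.11), and Hadha, at 0.25 and 0.46, was called in neither. Decr1, the reductase needed for unsaturated chains, was upregulated in both (0.90 ± 0.24, P_adj = 0.016 and 0.74 ± 0.24, P_adj = 0.021). Eci1, an isomerase for unsaturated chains, was upregulated in Spns1 KO (0.81 ± 0.27, P_adj = 0.039), but 7 of the 13 fits with a library left out lost that call, and its value in FeO was 0.20 ± 0.27 (P_adj = 0.56). Eci2, another isomerase, stood at -0.12 and 0.16, and Acad11 at 0.59 and 0.28, and neither was called.

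Of the 3 genes of electron transfer flavoprotein and its oxidoreductase, Etfa and Etfb were upregulated in each group. The shares of all tested genes upregulated were 14.0% in Spns1 KO and 22.4% in FeO. Etfb encodes the beta subunit and lies on chr7:43444083-43457800 (GRCm38). It had 47.9, 47.6, 33.3, 27.8 and 42.5 CPM in WT, 118.4, 136.6, 133.7 and 82.5 CPM in Spns1 KO, and 71.1, 64.6, 114.2 and 114.3 CPM in FeO. Every Spns1 KO and FeO library was above every WT library, and Etfb was upregulated 2.96-fold in Spns1 KO (log2FC 1.56 ± 0.22, P_adj = 0.00050) and 2.29-fold in FeO (1.19 ± 0.22, P_adj = 0.00099).

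Etfa, the alpha subunit, whose upstream bases hold the repeat shown above, lies on chr9:55454508-55512243 (GRCm38) and had 74.0, 68.3, 57.2, 65.1 and 70.5 CPM in WT. It had 195.6, 190.9, 205.8 and 125.9 CPM in Spns1 KO and 117.9, 70.7, 141.7 and 148.9 CPM in FeO. The Spns1 KO libraries were all above WT, and FeO 2 was within the WT range while the other FeO libraries were above it. Etfa was upregulated by a log2FC of 1.42 ± 0.21 in Spns1 KO (P_adj = 0.00050) and 0.84 ± 0.20 in FeO (P_adj = 0.0046). Etfdh, which passes the electrons of both subunits on to ubiquinone, stood at 0.30 ± 0.23 (P_adj = 0.36) and 0.01 ± 0.23 (P_adj = 0.97). The calls of Etfa and Etfb held whichever library was left out. Of the 31-base words of Etfb transcripts, 49.9% occur in other genes, most of them in the overlapping annotation Gm45233, so its counts can be split.

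The 4 peroxisomal members had positive log2FC in both contrasts, with a median of 0.72 for Spns1 KO and of 0.39 for FeO. Against all-gene shares of 22.4% in FeO and 14.0% in Spns1 KO, 0 were upregulated in FeO and 1 in Spns1 KO. That gene, Acaa1b, a peroxisomal thiolase, had 76.4, 82.7, 94.5, 75.6 and 43.7 CPM in WT, 188.7, 159.4, 327.2 and 54.5 CPM in Spns1 KO, and 32.4, 114.4, 138.0 and 148.6 CPM in FeO. A single library of each group, Spns1 KO 4 and FeO 1, lay within or below the WT range and the others lay above it. The log2FC was 1.29 ± 0.44 in Spns1 KO (P_adj = 0.043) and 0.54 ± 0.43 in FeO (P_adj = 0.32), and the call was lost in 8 of the 13 fits with a library left out. Acaa1a, Ehhadh, the bifunctional enzyme, and Hsd17b4, the multifunctional enzyme for branched and very long chains, had log2FC of 0.42, 0.84 and 0.61 in Spns1 KO and of 0.28, 0.51 and 0.09 in FeO. Without Spns1 KO 4 all 4 were upregulated in Spns1 KO. Acaa1b shares 50.1% of its 31-base words with other genes, chiefly Acaa1a, so these 2 thiolases can exchange counts.

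Acyl-CoA synthetases charge fatty acids with coenzyme A. Acsl5 had 53.4, 53.9, 58.0, 57.7 and 65.4 CPM in WT, 62.1, 68.1, 71.7 and 46.4 CPM in Spns1 KO, and 172.9, 70.8, 117.6 and 101.5 CPM in FeO. All 4 FeO libraries were above every WT library, and the Spns1 KO libraries overlapped WT. Acsl5 was upregulated 2.01-fold in FeO (log2FC 1.00 ± 0.21, P_adj = 0.0018), stood at 0.11 ± 0.21 in Spns1 KO (P_adj = 0.74), and was lower in Spns1 KO than in FeO by a log2FC of -0.90 ± 0.22 (P_adj = 0.016). That direct call was lost without FeO 1. Acsl1, the other synthetase of the list, stood at 0.25 and 0.41 and was not called.

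The thioesterases release free fatty acids from coenzyme A, and 1 of the 5, Acot3, was upregulated in each contrast. That count is near the all-gene shares of 14.0% in Spns1 KO and 22.4% in FeO. Acot3, a peroxisomal thioesterase, had 12.1, 10.9, 13.9, 20.6 and 8.3 CPM in WT, 39.2, 31.1, 60.8 and 12.9 CPM in Spns1 KO, and 15.1, 26.5, 33.0 and 30.1 CPM in FeO. Spns1 KO 4 and FeO 1 lay within the WT range and all other libraries above it. It was upregulated in Spns1 KO (log2FC 1.45 ± 0.36, P_adj = 0.010) and in FeO (0.99 ± 0.36, P_adj = 0.034), with the call in FeO lost in 6 of the 13 fits with a library left out. Acot1, Acot2, Acot4 and Acot12 had log2FC of 0.62, 0.77, 0.83 and 0.01 in Spns1 KO and of 0.96, 0.36, -0.12 and -0.30 in FeO. These genes share sequence, Acot2 having 37.8% and Acot3 25.2% of their 31-base words in other genes. Without Spns1 KO 4, all of the 5 except Acot12 were upregulated in Spns1 KO.

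Among uptake proteins and further targets of the receptor, Fabp3, a cytosolic fatty acid carrier on chr4:130308595-130315463 (GRCm38), had 22.2, 20.7, 17.3, 19.6 and 18.5 CPM in WT. It had 51.1, 58.0, 80.6 and 36.1 CPM in Spns1 KO and 69.4, 36.04, 30.02 and 47.7 CPM in FeO, with no overlap with WT in either. It was upregulated 2.87-fold in Spns1 KO (log2FC 1.52 ± 0.24, P_adj = 0.00078) and 2.33-fold in FeO (1.22 ± 0.24, P_adj = 0.0013), and both calls held whichever library was left out. A pseudogene, Fabp3-ps1, is the largest part of the 50.1% of its 31-base words that occur elsewhere.

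Cd36, a fatty acid translocase also found on endothelium, macrophages and adipocytes, on chr5:17781690-17888801 (GRCm38), had 55.3, 56.3, 44.4, 51.6 and 59.6 CPM in WT, 102.0, 85.0, 108.1 and 73.4 CPM in Spns1 KO, and 147.2, 46.5, 124.4 and 120.5 CPM in FeO. All Spns1 KO libraries were above WT, and of the FeO libraries only FeO 2 overlapped it. The log2FC was 0.79 ± 0.25 in Spns1 KO (P_adj = 0.032) and 1.04 ± 0.25 in FeO (P_adj = 0.0040). The summed endothelial markers were 242 to 295 CPM in WT, 360 to 392 CPM in Spns1 KO and 213 to 392 CPM in FeO. Of these 8 markers, 4 and 2 were upregulated and 0 and 1 downregulated, the last being Kdr in FeO. The shares of all tested genes were 14.0% and 22.4% upregulated and 7.55% and 19.7% downregulated. The summed macrophage markers were 56.5 to 71.2 CPM in WT, 78.2 to 125 CPM in Spns1 KO and 101 to 184 CPM in FeO, with 1 and 7 of 9 markers upregulated. None of these markers was at 0 in every library, and their part in the level of Cd36 was not tested. The call of Cd36 in Spns1 KO was lost in 7 of the 13 fits with a library left out.

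Angptl4, a secreted inhibitor of lipoprotein lipase and a standard readout of PPAR activity, went the other way from most of the list. It had 175.6, 151.6, 132.2, 89.6 and 127.3 CPM in WT, 46.3, 35.9, 107.8 and 39.8 CPM in Spns1 KO, and 34.8, 192.2, 71.2 and 93.4 CPM in FeO. Spns1 KO 1, 2 and 4 were below every WT library and Spns1 KO 3 was within the WT range, while the FeO libraries spread to both sides of WT. It was downregulated in Spns1 KO (log2FC -1.24 ± 0.42, P_adj = 0.043) and not called in FeO (-0.47 ± 0.41, P_adj = 0.36). The call in Spns1 KO was lost in 8 of the 13 fits with a library left out.

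Ucp2, an inner membrane carrier of mitochondria, had 190.8, 180.4, 104.4, 69.2 and 108.8 CPM in WT, 49.2, 73.1, 81.4 and 58.2 CPM in Spns1 KO, and 157.4, 107.4, 382.9 and 172.4 CPM in FeO. Every Spns1 KO library was below every FeO library, and both groups overlapped WT. The log2FC was -0.998 ± 0.35 in Spns1 KO (P_adj = 0.052) and 0.65 ± 0.34 in FeO (P_adj = 0.13), and the direct difference of -1.65 ± 0.37 passed the test (P_adj = 0.011). Macrophages and adipocytes also express Ucp2. Adipocyte markers summed to 157 to 393 CPM in WT, 135 to 355 CPM in Spns1 KO and 255 to 494 CPM in FeO. Of 9 such markers, 0 and 4 were upregulated, where 14.0% and 22.4% of all tested genes were. The downregulated markers were 1 and 0, where 7.55% and 19.7% of all tested genes were downregulated. The part of these cells in the level of Ucp2 was not tested. Vnn1, a pantetheinase, had log2FC of 0.95 ± 0.38 (P_adj = 0.080) and 0.90 ± 0.38 (P_adj = 0.063).

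Set against each other, Spns1 KO and FeO differed in 3 of the 37 genes. Ppara was higher in Spns1 KO, where 6.76% of all tested genes were, and Acsl5 and Ucp2 were lower, where 8.10% of all tested genes were. The median log2FC of Spns1 KO over FeO was 0.23, against 0.028 for all tested genes, and it was -0.046 without Spns1 KO 3. Without Spns1 KO 4, Acadm, Acot4, Eci1, Etfa, Hadh and Hsd17b4 joined Ppara as higher in Spns1 KO, where 4.94% of all tested genes were.

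The partners and coregulators of PPARa were downregulated more often than upregulated. Of 21 such genes tested, 7 were downregulated and 1 was upregulated in Spns1 KO, and 14 were downregulated and 2 upregulated in FeO, with median log2FC of -0.45 and -0.92. The shares of all tested genes were 7.55% down and 14.0% up for Spns1 KO, against 19.7% down and 22.4% up for FeO. The heterodimer partners Rxra, Rxrb and Rxrg were called in neither. Ppargc1a, the coactivator that drives mitochondrial genes with PPARa, was downregulated by -0.87 ± 0.20 in Spns1 KO (P_adj = 0.0061) and -0.93 ± 0.20 in FeO (P_adj = 0.0020). Lpin1, which amplifies that coactivator and also makes diacylglycerol, was downregulated by -1.22 ± 0.31 (P_adj = 0.012) and -1.37 ± 0.31 (P_adj = 0.0032).

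The downregulated genes included corepressors as well as coactivators. Nrip1, a corepressor, was downregulated in both (-0.79 and -1.39), as was Sirt1, a deacetylase that acts on Ppargc1a (-0.71 and -1.06). Ppargc1b, a relative of that coactivator, was downregulated in FeO (-1.33 ± 0.36, P_adj = 0.0082). Ncor1, a corepressor too, was downregulated in FeO (-0.60). The acetyltransferase Ep300 was downregulated in both (-0.61 ± 0.21, P_adj = 0.046 and -1.50 ± 0.22, P_adj = 0.00041). Esrra, an orphan receptor that acts with Ppargc1a, was upregulated in both (0.53 ± 0.17, P_adj = 0.037 and 0.71 ± 0.17, P_adj = 0.0048). Pparg, the adipocyte member of the family, was upregulated in FeO (1.00 ± 0.35, P_adj = 0.029) together with the adipocyte markers Adipoq, Cfd, Retn and Adrb3, and its relation to them was not tested.

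**Figure D5:**
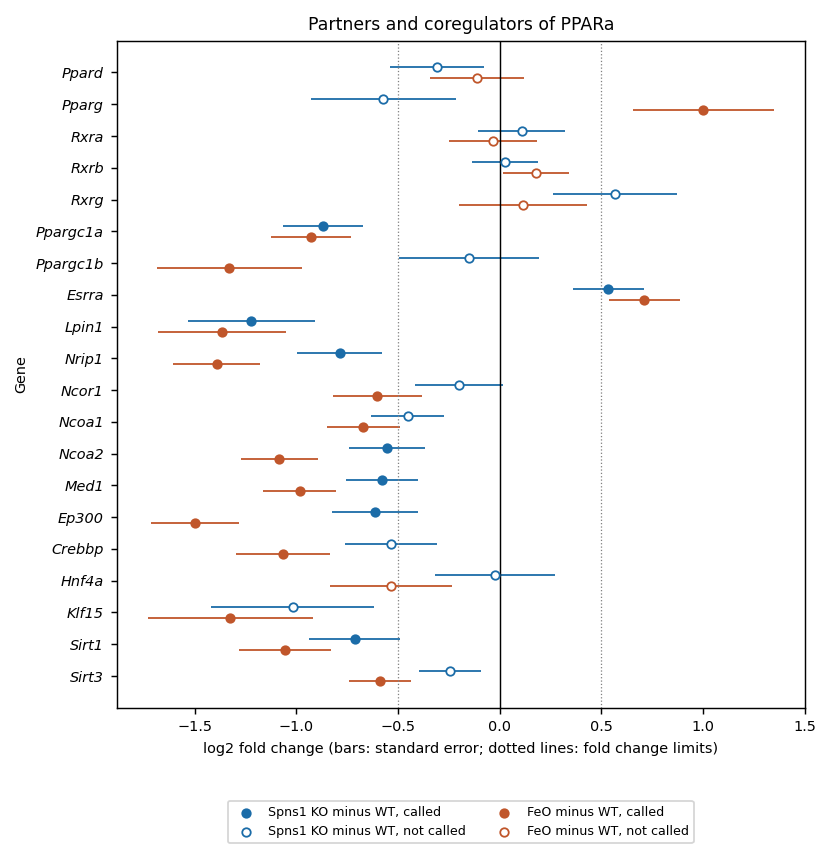
Log2 fold change against WT of partners and coregulators of PPARa (rows), for Spns1 KO in blue and FeO in orange, with standard errors, filled when called and open when not. In FeO most rows lie to the left of 0 as called genes, while Esrra and Pparg are called to the right.

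An alternative fit took transcript length and GC content into account together, and the part of either alone was not tested. The median transcript of the 37 genes was 2272 bases long, that of all tested genes 2627 bases. With a smooth trend of expression on transcript length and GC content removed from each library, 14 of the 37 genes were upregulated and 0 downregulated in Spns1 KO (median log2FC 0.69), and 12 were upregulated and Ppara was downregulated in FeO (0.58). Of all tested genes, 10.9% were then upregulated and 4.91% downregulated in Spns1 KO (median -0.0098), while FeO upregulated 3460 of 16468 and downregulated 13.2% (median 0.080). Acaa2, Eci1, Acaa1b and Angptl4 were then no longer called in Spns1 KO, nor Slc25a20, Hadh and Acot3 in FeO. Ppara stood at -2.72 in FeO after that step. Etfb (893 bases) then stood at 1.02 in Spns1 KO and 0.66 in FeO, and Fabp3 (823 bases) at 0.98 and 0.67. These values were lower than before that step, with the calls kept. Acsl5 and Cd36 in FeO were instead higher, at 1.31 and 1.35. Of the PPARa partners and coregulators, 3 were then downregulated in Spns1 KO, namely Lpin1, Ppargc1a and Sirt3, and 8 in FeO, namely Ep300, Klf15, Lpin1, Nrip1, Ppargc1a, Ppargc1b, Sirt1 and Sirt3. Esrra was then upregulated in FeO and was not called in Spns1 KO.

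Other known targets of PPARa were called about as often as all tested genes, or less. Their median log2FC was 0.17 in Spns1 KO and 0.60 in FeO, against -0.045 and -0.011 over all tested genes. Above 0 were 13 genes in Spns1 KO and 17 in FeO. Of 22 listed, 21 were tested, and 3 were upregulated and 2 downregulated in Spns1 KO, and 3 upregulated and 3 downregulated in FeO, beside all-gene shares of 14.0% up and 7.55% down for Spns1 KO, 22.4% up and 19.7% down for FeO. Pdk4, the kinase that shuts off pyruvate entry and a strong PPARa target in fasting, was downregulated in both, by -1.65 ± 0.49 (P_adj = 0.026) and -1.50 ± 0.49 (P_adj = 0.022). Fabp1, the liver type fatty acid binding protein, was near the floor at 0.616 ± 0.276 CPM (SD, n = 5) in WT, 6.82 ± 3.89 CPM (n = 4) in Spns1 KO and 1.29 ± 1.01 CPM (n = 4) in FeO. From that low level it was upregulated in Spns1 KO (log2FC 3.44 ± 0.53, P_adj = 0.00071) and stood at 1.03 ± 0.54 in FeO (P_adj = 0.13). Aqp7, a glycerol channel, was upregulated in both (1.16 ± 0.23, P_adj = 0.0030 and 1.33 ± 0.23, P_adj = 0.00070). Lpl, the lipase that Angptl4 inhibits, was upregulated in Spns1 KO (1.32 ± 0.27, P_adj = 0.0039). Txnip, which restrains glucose uptake, was downregulated in FeO (-1.53 ± 0.46, P_adj = 0.016).

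Of 19 other peroxisomal fatty acid enzymes, 7 were upregulated and 0 downregulated in Spns1 KO, and 9 were upregulated and 1 downregulated in FeO, with the same all-gene shares. Pecr, which saturates trans-enoyl chains, led in Spns1 KO at 1.63 ± 0.26 (P_adj = 0.00078) and was upregulated in FeO too (0.99 ± 0.26, P_adj = 0.0067). Scp2, a thiolase and sterol carrier, was upregulated in both (1.51 and 0.52), as was Eci3, an enoyl isomerase (1.36 and 1.03). Cat, the catalase that removes the peroxide of peroxisomal oxidation, was upregulated in Spns1 KO (1.41 ± 0.20, P_adj = 0.00050) and stood at 0.40 ± 0.20 in FeO (P_adj = 0.12), and the direct difference passed the test (1.01, P_adj = 0.0089). Abcd2, a carrier of very long chains, led in FeO (1.42 ± 0.49, P_adj = 0.029) from a low level. It had 1.96 ± 0.53 CPM (SD) in WT and 5.25 ± 3.36 CPM (SD) in FeO. Acox2, an oxidase of branched chains, followed in FeO (1.19 ± 0.25, P_adj = 0.0017).

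Of 24 other genes tested from a list built around mitochondrial fatty acid enzymes, 8 were upregulated and 2 downregulated in Spns1 KO. In FeO 7 were upregulated and 1 downregulated, again with the same all-gene shares. The list also holds genes of other compartments, such as Slc22a4, upregulated in both, and Acsl3, downregulated in FeO. Acot13, a mitochondrial thioesterase, was upregulated in both (1.84 ± 0.25, P_adj = 0.00042 and 1.25 ± 0.25, P_adj = 0.0014), as were Hsd17b10 (1.21 and 1.32), Echs1, the short chain hydratase of the spiral (0.66 and 0.79), and Acot7 (0.89 and 1.42). Acot9, a further thioesterase, was upregulated in FeO (0.85 ± 0.23, P_adj = 0.0081). Pcca and Pccb, the subunits of propionyl-CoA carboxylase, which takes up the product of odd chains, were upregulated in Spns1 KO (1.43 and 1.34) and stood at 0.46 and 0.14 in FeO. Acacb, which makes the malonyl-CoA that inhibits CPT1, was downregulated in Spns1 KO (-0.98 ± 0.27, P_adj = 0.017).

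Of 13 genes of ketone metabolism and the response to fasting and insulin, 2 were upregulated and 1, Pdk4, was downregulated in Spns1 KO, and 3 were upregulated and 2 downregulated in FeO, all near or below the all-gene shares (14.0% up and 7.55% down for Spns1 KO, 22.4% up and 19.7% down for FeO). Bdh1, a ketone body dehydrogenase, was upregulated in both (1.15 and 0.76), Fbp1, of gluconeogenesis, in Spns1 KO (1.47 ± 0.25, P_adj = 0.0012), and Irs2, an insulin receptor substrate, was downregulated in FeO (-1.60 ± 0.37, P_adj = 0.0034).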

How the data were processed

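The authors deposited 1 table of estimated counts per gene symbol, whole numbers for 13 libraries; per the labels the reads were processed with bcl2fastq 2.19, kallisto 0.44.0 and DESeq2 against GRCm38, whereas the study's methods describe alignment and counting by other tools, so the counter of these expected counts is not settled. kallisto can split reads between genes that share sequence. No column belonged to another sample. From these counts, log2FC, standard errors and P_adj (Benjamini-Hochberg) were computed with edgeR 4.0.16 in R 4.3.3 (TMM factors, filterByExpr, glmQLFit and glmQLFTest, all 13 libraries in 1 fit), and a gene was called at P_adj under 0.05 and a log2FC beyond 0.5. CPM are on TMM-scaled totals. Per-library values relative to WT are log2 CPM with a prior count of 2. Alternatives were other size factors, DESeq2 1.42.0, no filter, fits of 2 groups, a replicate block, removal of a trend on transcript length and GC content (mgcv 1.9.3, GENCODE M21), and leaving out each library. P values are judged against the spread between libraries of a group, with each library taken as a separate replicate. WT 1 and WT 2 were the most alike of all pairs within a group. Their chi-square per degree of freedom was 7.463, and the next lowest was 34.73, for WT 2 with WT 5. Whether WT 1 and WT 2 are independent of each other was not tested. The fits were also run on counts simulated from the model that edgeR assumes, which checks the code and not whether that model suits these libraries.

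The genes and lists were chosen with earlier results of these data known. CPM in every library are given for Ppara, Cpt1a, Cpt2 and the called members with the largest log2FC, up to 6 in each direction and contrast, and up to 4 genes per other list and contrast are named by log2FC. Esrra, Pparg, Ncor1, Gm45233, Echs1, Acacb and the promoters of Etfa and Cd36 were picked after values were seen. Shared sequence is the share of 31-base words of a gene's transcripts that occur in other genes. A few genes of the other lists are counted but not reported here by name.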

Additional observations from a re-analysis of the deposited data

Results flagged for a closer look

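Within groups, 3 of the 42 sets of libraries examined held a library far from the others by Dixon's test, and chance gives about 1 in 20. Ppara in WT 5, at 130.6 CPM, lay below the other WT libraries, which had 273.4 to 320.1 CPM. Ppara in Spns1 KO 4, at 271.7 CPM, lay above the other Spns1 KO libraries, which had 126.3 to 143.7 CPM. Angptl4 in Spns1 KO 3, at 107.8 CPM, lay above the other Spns1 KO libraries, which had 35.9 to 46.3 CPM.

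The effects of Spns1 KO and FeO differed by the direct test in edgeR for 3 genes. Ppara was higher in Spns1 KO by a log2FC of 2.06 (P_adj = 0.010), and it stayed called whichever library was left out, at 1.73 without Spns1 KO 4 and 2.06 without WT 5. Acsl5 was lower in Spns1 KO by a log2FC of -0.90 (P_adj = 0.016), and without FeO 1 the difference was -0.63 and not called. Ucp2 was lower in Spns1 KO by a log2FC of -1.65 (P_adj = 0.011), and it stayed called whichever library was left out, between -1.86 and -1.15.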

How the results depend on the processing

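With libraries left out in turn, Spns1 KO had 7 (without Spns1 KO 3) to 26 (without Spns1 KO 4) upregulated genes, and FeO had 7 (without FeO 3) to 18 (without Spns1 KO 4 or FeO 2). Over all tested genes, Spns1 KO upregulated 9.18% without Spns1 KO 3, the lowest share, and 3003 of 16651 without Spns1 KO 4, the highest, and FeO 19.7% to 24.2%, with 20.1% without FeO 3. Downregulated were 0 to 2 genes for Spns1 KO and 1 to 2 for FeO, and between Spns1 KO and FeO the higher count ranged from 1 to 7 and the lower from 1 to 3. The median log2FC was 0.42 to 0.88 for Spns1 KO, 0.42 to 0.69 for FeO and -0.046 to 0.40 between Spns1 KO and FeO.

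Library numbers shared across groups are not stated to pair animals, and the correlation of deviations over 12 pairs of same-numbered libraries ran from -0.30 to 0.26, so the replicate block is only an alternative: with it 10 genes were upregulated in each contrast with WT (of all genes, 11.7% for Spns1 KO, 20.2% for FeO) and 0 were downregulated in Spns1 KO. With length and GC trend removed together with the replicate block, Spns1 KO upregulated 7 genes and FeO 6 (all genes 6.62% and 16.4%, the latter no lower than the share of the 6), 0 were downregulated in Spns1 KO and 2 were higher in Spns1 KO than in FeO; with the trend alone, 0 were downregulated in Spns1 KO and 2 were higher than in FeO. With the trend removed and the block, Fabp3 was called in neither contrast with WT. In Spns1 KO 2 genes were downregulated with library totals alone, with DESeq2 and with only the compared groups fitted. Between Spns1 KO and FeO, DESeq2 called 2 higher and the fit of only those groups called 1 lower. The causes were not tested.

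Unscaled library totals moved the median log2FC of all genes in Spns1 KO to -0.18, and Acsl5 there to -0.030, against a median of the 37 genes of 0.50. Signs also turned, for values that had not been called, for Cpt1a in Spns1 KO (0.029) and Eci1 in FeO (-0.26, or -0.32 with the block) with the trend removed, and between Spns1 KO and FeO for Acads (-0.022 with the trend removed, -0.022 with the block too, -0.050 to 0.25 over libraries left out), Acadl (-0.11 to 0.25), Decr1 (-0.10 to 0.37) and Cpt2 (-0.34 to 0.13). Acadm, Acadvl, Hadh, Etfa and Etfb in Spns1 KO, Ppara, Acads, Etfb, Acsl5 and Cd36 in FeO, and Ppara and Ucp2 between Spns1 KO and FeO kept their call under the 8 other settings and every library left out.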
